A study of Mus musculus with 6 samples.

Results

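The genes described here are 40 genes of mitosis and the spindle, listed by name as regulators, motors, kinetochore parts and markers of cell division, and measured in ovarian granulosa cells of the mouse on Affymetrix expression arrays. A gene was measured by the probe set whose only gene symbol in the array's annotation was that gene, and by the brightest one over all 6 arrays where a gene had several. By this rule 39 of the 40 were measured, of 18193 genes in all, and Ccnb1 is not analysed here. Granulosa cells of wild-type mice at day 25 (d25) were compared with those of double knockout mice (Foxo1/3 dKO) at day 25 and at 2 months, with 2 arrays in each of the 3 groups. All mice were on a mixed FVB and C57BL/6 background. The dKO mice are Foxo1 f/- and Foxo3 f/-, with 1 floxed and 1 null allele of each gene, and carry Amhr2-cre, a Cre recombinase driven by Amhr2, which is active in granulosa cells, so 1 copy of each is missing from every cell and the floxed copy is removed where Cre acts. No wild-type group at 2 months is analysed here. Age was therefore compared within the dKO, and dKO at 2 months against wild type at day 25 differs in genotype and age together. Whether the 2 arrays of a group stand for different mice is not in the labels, and the p-values then cover array-to-array spread, possibly a technical one.

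Cells enter mitosis when cyclin-dependent kinase 1 is switched on by its cyclins. Chromosomes are then caught by spindle fibres at their kinetochores, a checkpoint holds the cell until every chromosome is attached, and the anaphase-promoting complex lets the sister chromatids part. Motor proteins shape the spindle, and a contractile ring divides the cell. Most of these genes are transcribed in G2 and mitosis, so their messages mark dividing cells, and granulosa cells are the main dividing cells of a growing follicle. FOXO factors are forkhead transcription factors that, in many cell types, restrain the cell cycle.

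The arrays were checked against their labels first. Intensity of Foxo1 was 10319 and 7666 in wild type, 904 and 2291 in day 25 dKO, and 126 and 343 in dKO at 2 months. Intensity of Foxo3 was 1632 and 1342 in wild type, 2539 and 3279 in dKO mice at day 25, and 2484 and 1872 in dKO at 2 months. Foxo1 was lower on every dKO array than in wild type, while Foxo3 went against the label, and it is not known here which part of the transcript its probe set reads. The arrays are therefore called by their labels throughout. All 12 granulosa markers lay above the array median on every array, and their summed intensity was 123439 and 135806 in wild type, 143483 and 132346 in dKO mice at day 25, and 145115 and 128086 in dKO at 2 months. Replicate 1 of dKO at 2 months stood apart from the rest: its correlation with the other arrays over all probe sets was 0.964 to 0.978, against 0.982 to 0.992 among the other arrays. The 3 comparisons are given with and without it, and list medians for it and for replicate 2. No gene passed an adjusted p of 0.05 in any of the 3 comparisons in limma's moderated test across 45037 probe sets, where the smallest adjusted p was 0.3671, 0.712 and 0.1142 and the counts at an unadjusted p of 0.05 were 3668, 2514 and 5900 for dKO against wild type at day 25, dKO at 2 months against day 25, and dKO at 2 months against wild type.

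The mitosis and spindle genes fell into 1 pattern by array: replicate 1 of dKO at 2 months was low for all 39. The medians of the 39 on the other 5 arrays lay close together, while single genes spread more, such as Mybl2, from 220 to 502 there. Relative to the mean of the 4 day 25 arrays, on the log2(intensity + 1) scale used for every difference here, the median of the 39 genes was -1.64 on replicate 1, a 3.126-fold lower level, and -0.11 on replicate 2. Over all 18193 genes the medians were 0.02 and 0.03. On replicate 1 the genes ran from -2.30 for Mybl2 to -0.58 for Foxm1, and 37 of the 39 were more than 2-fold below the day 25 mean, where 5.44% of all genes were. The other 2 were Mad2l1, at -0.96, and Foxm1, which was at -1.37 with another probe set above the array median. Each of the 39 had its lowest intensity of the 6 arrays there, as did 27.3% of all genes, and 28.9% of all genes lay below all 4 day 25 arrays. On replicate 2 the range was -0.34 for Kif23 to 0.37 for Anln, with none past 2-fold. Of the 39 genes, 6 lay below all 4 day 25 arrays there (12.4% of all genes did) and 3 above all 4 (21.7% did). Because these are bulk samples, fewer dividing cells, a changed mix of other cells and less message per cell cannot be told apart. These differences of a single array from the day 25 mean are descriptions, with no test.

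**Figure D1:**
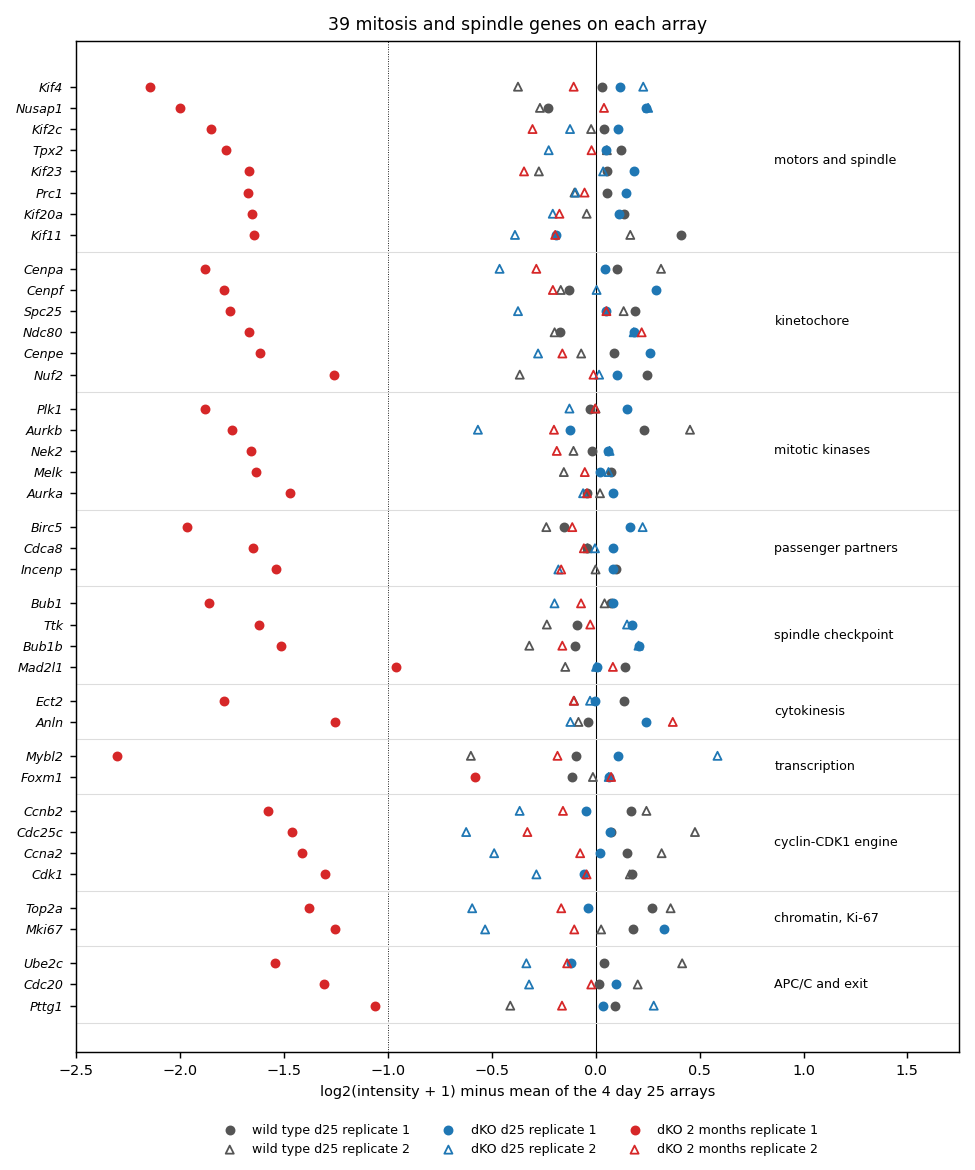
The log2(intensity + 1) of each of the 39 genes on each array, minus that gene's mean over the 4 day 25 arrays (horizontal axis), with genes grouped by role (vertical axis). Filled circles are replicate 1 and open triangles replicate 2 of each group, and the dotted line marks a 2-fold lower level. The red circles of dKO 2 months replicate 1 lie left of all other points in every row, from -2.30 to -0.58.

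The spread between replicates differed between the groups too. The 2 arrays of dKO at 2 months differed by more than 2-fold in 37 of the 39 genes (8.06% of all genes), while none of the 39 differed so between the wild-type arrays (2.31%) or the dKO arrays at day 25 (1.88%). The ratio of replicate 2 to replicate 1 at 2 months was smallest for Foxm1, at 1.578, followed by Pttg1 at 1.864 and Mad2l1 at 2.059. It was largest for Mybl2, at 4.388, followed by Kif4 at 4.132 and Nusap1 at 4.121. At day 25 the dKO arrays also differed in 1 direction, more mildly: replicate 2 was below replicate 1 in 31 of the 39 genes, where 40% of all genes were. In wild type it was so in 27 of the 39 (43.9% of all genes).

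The engine of mitotic entry is CDK1 with its A- and B-type cyclins and the phosphatase CDC25C that activates it. Cdk1 gave intensities of 2091 and 2076 in wild type, 1784 and 1520 in dKO mice at day 25, and 751 and 1797 in dKO at 2 months. Ccnb2, a B-type cyclin, gave 2023 and 2131, then 1740 and 1396, then 602 and 1613, in the same order. Ccna2, the A-type cyclin of S phase and G2, gave 1690 and 1899, 1547 and 1086, and 572 and 1447. In all 3 genes both dKO arrays at day 25 lay below both wild-type arrays, and replicate 1 at 2 months was the lowest of the 6 arrays. Cdc25c gave 257 and 340 in wild type, 256 and 158 in dKO mice at day 25, and 88 and 194 in dKO at 2 months, with a gap of 1 intensity unit between the groups at day 25. The median of these 4 genes on replicate 1 at 2 months was -1.44.

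The anaphase-promoting complex is switched on by CDC20, is charged with ubiquitin through UBE2C, and destroys securin, the product of Pttg1, to free the enzyme that parts the chromatids. Cdc20 gave 3949 and 4487 in wild type, 4179 and 3123 in dKO mice at day 25, and 1576 and 3843 in dKO at 2 months. Ube2c gave 4029 and 5236, 3608 and 3114, and 1344 and 3568. Pttg1 gave 6738 and 4747, 6475 and 7660, and 3026 and 5641. The groups at day 25 overlapped for Cdc20 and Pttg1 and did not for Ube2c. On replicate 1 at 2 months Ube2c was 2.918-fold, Cdc20 2.473-fold and Pttg1 2.085-fold below the day 25 mean.

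Promoter sequence is set beside these values as a description. Any link between motifs and the low levels on replicate 1 at 2 months was not tested. Late cell cycle genes are known to be controlled through the cell cycle genes homology region (CHR), bound by the DREAM and MuvB-type complexes, and through CCAAT boxes, bound by NF-Y. The 4 promoters shown are those of genes of the engine and the anaphase-promoting complex. They were chosen because each held at least 1 CHR and 2 CCAAT boxes and overlapped no annotated gene, its own included. Each is the 250 bases before the annotated start from RefSeq (GRCm38.p6), read 5′ to 3′ on the gene's strand, with matches to TTTGAA and CCAAT on either strand in capitals. Their positions are chr2:164769679-164769928 on the plus strand for Ube2c, chr4:118437344-118437593 on the minus strand for Cdc20, chr9:70421555-70421804 on the minus strand for Ccnb2, and chr10:69352913-69353162 on the minus strand for Cdk1.
Cdk1: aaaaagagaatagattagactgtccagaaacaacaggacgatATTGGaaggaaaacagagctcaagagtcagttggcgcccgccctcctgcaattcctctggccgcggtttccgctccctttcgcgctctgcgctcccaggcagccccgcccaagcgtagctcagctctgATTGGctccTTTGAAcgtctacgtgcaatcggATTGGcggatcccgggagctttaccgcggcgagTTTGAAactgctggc
Ccnb2: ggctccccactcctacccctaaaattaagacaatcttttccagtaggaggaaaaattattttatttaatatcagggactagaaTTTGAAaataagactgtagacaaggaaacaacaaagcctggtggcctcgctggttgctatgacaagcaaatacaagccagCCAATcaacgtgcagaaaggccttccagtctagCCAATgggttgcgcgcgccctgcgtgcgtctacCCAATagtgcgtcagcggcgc
Cdc20: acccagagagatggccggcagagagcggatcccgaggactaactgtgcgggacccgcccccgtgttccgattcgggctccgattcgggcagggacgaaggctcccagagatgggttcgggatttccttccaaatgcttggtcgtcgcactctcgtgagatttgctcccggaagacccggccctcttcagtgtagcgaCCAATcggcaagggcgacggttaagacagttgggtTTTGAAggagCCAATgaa
Ube2c: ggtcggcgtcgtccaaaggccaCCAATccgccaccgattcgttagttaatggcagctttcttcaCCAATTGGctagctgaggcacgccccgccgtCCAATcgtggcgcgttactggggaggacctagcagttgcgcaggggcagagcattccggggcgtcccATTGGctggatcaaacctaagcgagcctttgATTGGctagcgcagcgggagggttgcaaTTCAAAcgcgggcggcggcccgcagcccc
The CHR match began 29 bases before the start in Ube2c and 18 bases before it in Cdc20. Cdk1 had matches at 71 and 15 bases before the start. Ccnb2 had one at 167 bases before the start and a further one 5 bases after it, outside the stretch printed. Of the 6 CCAAT matches of Ube2c, the pair at 186 and 183 bases before the start overlap, on opposite strands.

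Promoter windows of 300 bases, from 250 before to 50 after the start, were found for 32 of the 39 genes, in 34 windows, since some genes have more than 1 start. Cdc25c, Incenp, Tpx2, Aurkb, Ccna2, Kif20a and Foxm1 had no window in the table. The CHR letters TTTGAA, on either strand, were in 22 of the 32 genes and in 70.6% of their windows, against 17.9% of all 32851 windows. CCAAT was also in 22 genes and 70.6% of windows, against 37.4% of all windows. Both together were in 19 genes and 61.8% of windows, against 6.95% of all. The CHR variant TTCGAA was in 3 genes, Bub1b, Bub1 and Top2a, or 8.82% of windows against 1.56% of all. The E2F core GCGGGAA was in none, against 4.6% of all windows. The forkhead core TGTTTAC was in Nuf2 and Ect2, or 5.88% of windows against 3.65% of all. CHR and CCAAT matches can share a base: in Cdca8 a CHR match began 14 bases after the start and a CCAAT match 19 bases after it. A match is letters and not a bound site, and no binding was measured in these cells. Within the 200 bases before the start, CCAAT remained in 22 genes (70.6% of windows, against 29.3% of all). CHR was in 10 there (32.4% of windows, against 12.5% of all).

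**Figure D2:**
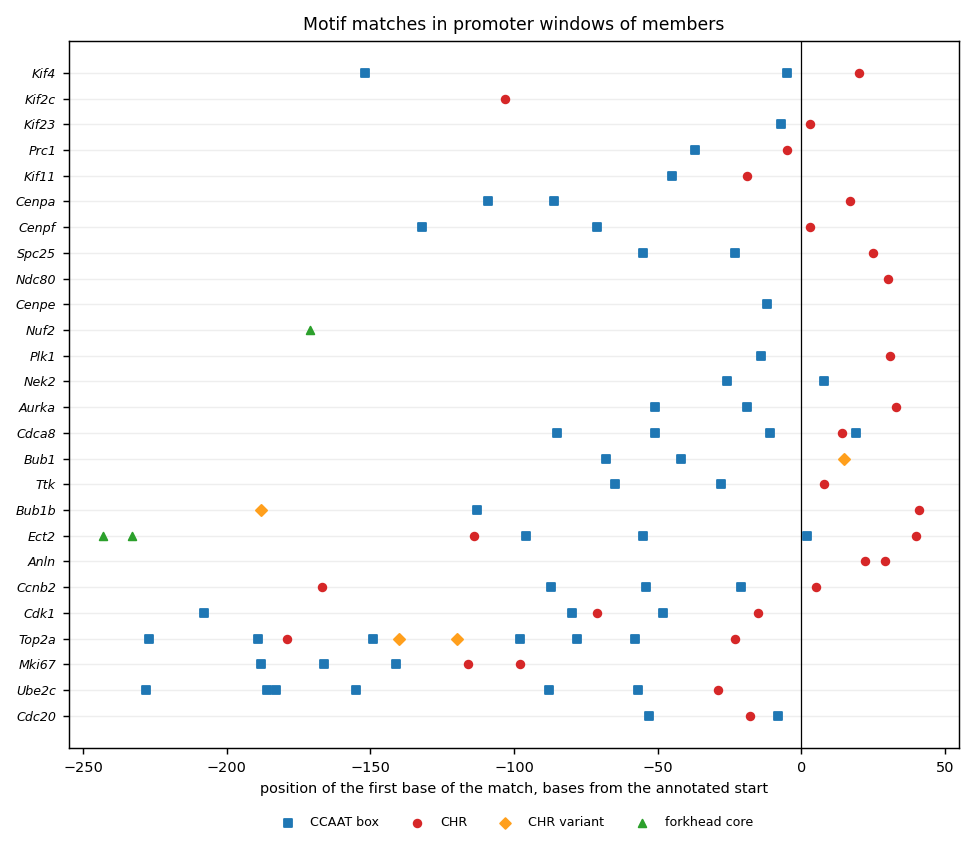
Positions of motif matches in the promoter windows of the 26 genes with at least 1 match; for genes with 2 windows the first listed is drawn. The horizontal axis is the distance in bases of the first base of a match from the annotated start (vertical line), and each row is a gene. CCAAT boxes (blue squares) lie mostly before the start, CHR matches (red circles) on both sides of it, and forkhead cores (green triangles) are in 2 rows.

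The spindle checkpoint was represented by Bub1, Bub1b, Mad2l1 and Ttk, whose kinases and adaptors delay the parting of chromatids until all kinetochores are attached. Bub1 gave 1798 and 1762 in wild type, 1812 and 1491 in dKO mice at day 25, and 471 and 1629 in dKO at 2 months. Bub1b gave 2444 and 2095, 3024 and 3016, and 915 and 2339. Bub1b was higher on both dKO arrays at day 25 than in wild type, while Bub1 overlapped. Ttk, the kinase that starts checkpoint signalling, gave 907 and 821, 1091 and 1073, and 314 and 949. Mad2l1, the inhibitor of CDC20, gave 3071 and 2520, 2799 and 2793, and 1435 and 2954. The median of the 4 genes on replicate 1 at 2 months was -1.57.

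The mitotic kinases and the chromosomal passenger complex, which corrects faulty attachments, split at day 25. Aurkb, the kinase of the complex, gave 675 and 786 in wild type, 527 and 387 in dKO mice at day 25, and 170 and 499 in dKO at 2 months. Birc5 (survivin), which brings Aurora B to the centromere, gave 2706 and 2555, 3379 and 3523, and 771 and 2786. Aurkb thus lay below wild type on both dKO arrays at day 25, and Birc5 above it. The complex's other parts were Incenp, whose groups overlapped at day 25, and Cdca8 (borealin), whose groups did not. Incenp gave 3090 and 2889, 3062 and 2552, and 993 and 2576. Cdca8 gave 2647 and 2654, 2894 and 2721, and 868 and 2622. Plk1, which drives entry, spindle assembly and exit, gave 812 and 826, 918 and 757, and 224 and 825, so that its replicate 2 at 2 months lay within the day 25 range and its replicate 1 was 3.677-fold below the mean. Aurka, the centrosome kinase, gave 785 and 820, 855 and 775, and 291 and 785. Nek2, which parts the centrosomes, gave 1039 and 977, 1095 and 1102, and 333 and 924, and Melk lay between 814 and 952 at day 25 and at 291 and 873 at 2 months. The medians on replicate 1 at 2 months were -1.66 for the 5 kinases and -1.65 for the 3 partners.

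Kinetochore genes had a median of -1.71 on replicate 1 at 2 months. Cenpa, the histone variant that marks the centromere, gave 1884 and 2180 in wild type, 1807 and 1272 in dKO mice at day 25, and 476 and 1438 in dKO at 2 months. Ndc80, the part of the outer kinetochore that grips microtubules, gave 289 and 284, 371 and 370, and 102 and 380. Ndc80 was higher and Cenpa lower on both dKO arrays at day 25 than in wild type. Spc25, a partner in the same complex as Ndc80, gave 1339 and 1289, 1215 and 906, and 346 and 1217, and so differed from wild type at day 25 in the other direction from Ndc80. Nuf2, a further partner, overlapped between groups at day 25, with 1068 and 699, then 967 and 911, and it gave 376 and 894 at 2 months. Cenpf gave 1231 and 1196, 1643 and 1348, and 388 and 1165. Cenpe, a kinetochore motor, was at 853 to 1238 at day 25 and at 337 and 925 at 2 months. Another Cenpe probe set above the array median gave 604 and 443, 301 and 183, and 79 and 184.

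Motors and spindle genes had the lowest median on replicate 1 at 2 months of the 10 role groups, -1.73. Kif11, the motor that pushes spindle poles apart, gave 726 and 613 in wild type, 479 and 417 in dKO mice at day 25, and 174 and 477 in dKO at 2 months. Nusap1, a microtubule-binding protein of the spindle, gave 1356 and 1318, 1878 and 1891, and 396 and 1632. Kif4, a chromosome-bound motor, gave 790 and 597, 838 and 907, and 174 and 719. Kif11 was below wild type on both dKO arrays at day 25, and Nusap1 and Kif4 above it. Kif2c, which dismantles microtubules at the centromere, gave 1549 and 1486, 1625 and 1385, and 417 and 1222. Kif23, a motor of the central spindle, gave 1427 and 1137, 1560 and 1409, and 432 and 1082. Both had overlapping groups at day 25 and lay below all 4 day 25 arrays on each array at 2 months. Tpx2, which activates Aurora A, gave 1009 and 963, 961 and 793, and 270 and 915, and Kif20a and Prc1 overlapped at day 25 and were at 195 and 622 on replicate 1 at 2 months.

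The 2 genes of cytokinesis differed on replicate 2 at 2 months with the chosen probe sets. Anln (anillin), a scaffold of the contractile ring, gave 1744 and 1692 in wild type, 2122 and 1647 in dKO mice at day 25, and 750 and 2318 in dKO at 2 months, so it was highest of all on replicate 2. A dimmer probe set of Anln gave 150 on that array, against 104 to 190 at day 25. Ect2, the exchange factor that activates RhoA at the division plane, gave 1203 and 1019, 1092 and 1075, and 316 and 1018, just below the day 25 range on that array. Top2a, which untangles chromosomes, gave 2798 and 2976, 2257 and 1535, and 891 and 2066, and was below wild type on both dKO arrays at day 25. Mki67, the source of the Ki-67 proliferation marker, gave 5308 and 4775, 5880 and 3243, and 1968 and 4366, and its wild-type values lay between those of the dKO arrays at day 25.

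The list held 2 transcription factors of the cell cycle. With the chosen probe sets they marked the ends of the range on replicate 1 at 2 months. Mybl2 (B-Myb), a MuvB partner that activates mitotic genes, gave 313 and 220 in wild type, 360 and 502 in dKO mice at day 25, and 67 and 294 in dKO at 2 months. Foxm1, a forkhead activator of the same genes, gave 223 and 239, 252 and 252, and 161 and 254. Both were higher on the dKO arrays at day 25 than in wild type, Foxm1 by 0.13. The ends of the range depended on the probe set. On replicate 1 at 2 months, other probe sets above the array median put Mybl2 at -1.46 and Foxm1 at -1.37 and -0.69.

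At day 25, at matched age, dKO and wild type differed in no shared direction over these genes: the mean was higher in dKO for 20 (55.4% of all genes) and lower for 19 (43.9%). The median difference was 0.01, against 0.03 over all genes, and the range was -0.69 for Aurkb to 0.69 for Mybl2. The dKO and wild-type arrays did not overlap for 11 genes that were higher in dKO (26.4% of all genes were) and 11 that were lower (19.5% were). The higher were Bub1b, Ttk, Nek2, Birc5, Cdca8, Cenpf, Ndc80, Kif4, Nusap1, Foxm1 and Mybl2. The lower were Aurkb, Cdk1, Ccna2, Ccnb2, Cdc25c, Ube2c, Cenpa, Spc25, Kif11, Tpx2 and Top2a, and so included all 4 measured genes of the cyclin and CDK1 engine. These calls are for the chosen probe sets. Another probe set of Cdca8 was lower in dKO without overlap (537 and 590 in wild type, 489 and 463 in dKO). Another of Nek2 overlapped (364 and 289, then 329 and 327). Cenpe overlapped with its chosen probe set, at -0.02. Another of its probe sets above the array median was lower in dKO without overlap (604 and 443, then 301 and 183), a difference of -1.14.

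In limma's moderated test on all 6 arrays none of the 39 genes passed an adjusted p of 0.05, as for all genes (0.0%), and none passed an unadjusted p of 0.05, where 4.88% of all genes were higher and 3.43% lower. Top2a was lower by a log2 difference of -0.63 (SE 0.44, adjusted p = 0.732 in limma), the smallest adjusted p. Aurkb differed by -0.69 (SE 0.53), Kif11 by -0.58 (SE 0.48) and Cdc25c by -0.55 (SE 0.45), with limma adjusted p of 0.7578, 0.7812 and 0.7753. Ccna2 differed by -0.47 (SE 0.47), Ube2c by -0.45 (SE 0.48) and Cenpa by -0.42 (SE 0.55). On the other side stood Mybl2 at 0.69 (SE 0.72), Bub1b at 0.42 (SE 0.45), Birc5 at 0.39 (SE 0.60) and Anln at 0.12 (SE 0.54). Cenpa depended most on the probe set among these genes: it was at -1.03 with the mean of its probe sets (adjusted p = 0.500 in limma) and at -2.62 with a dimmer one (adjusted p = 0.474), whose intensity was 314 and 178 in wild type and 23 and 61 in dKO. Averaging probe sets gave 0.07 for Bub1b, -0.35 for Top2a and 0.36 for Anln. Kif11 was at -0.37 with its brightest plain-suffix probe set, one whose name has no _s, _x or _a before _at. The spread in this fit came largely from the 2 arrays at 2 months: the median SE of the 39 genes was 0.51 on all 6 arrays and 0.13 without replicate 1 of dKO at 2 months. In that second fit 5 genes were higher at an unadjusted p of 0.05 (Bub1b, Ttk, Birc5, Ndc80 and Nusap1, 12.8% of the 39 against 9.04% of all genes) and 3 lower (Aurkb, Cdk1 and Kif11, 7.69% against 6.08%). Nusap1 had the smallest p, with a difference of 0.50 (SE 0.06, adjusted p = 0.322 in limma, the smallest of the 39). These shares lie near those of all genes. On the same arrays all 17 oocyte markers had a higher mean in dKO, with a median difference of 1.10 and none at an unadjusted p of 0.05. All 12 endothelial markers (median 0.48, 4 at that p), all 12 stromal and smooth muscle markers (0.53, 2 at that p) and 16 of 17 leukocyte markers (0.56, none at that p) were also higher in dKO. The part of these markers' cells in the differences above was not tested.

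**Figure D3:**
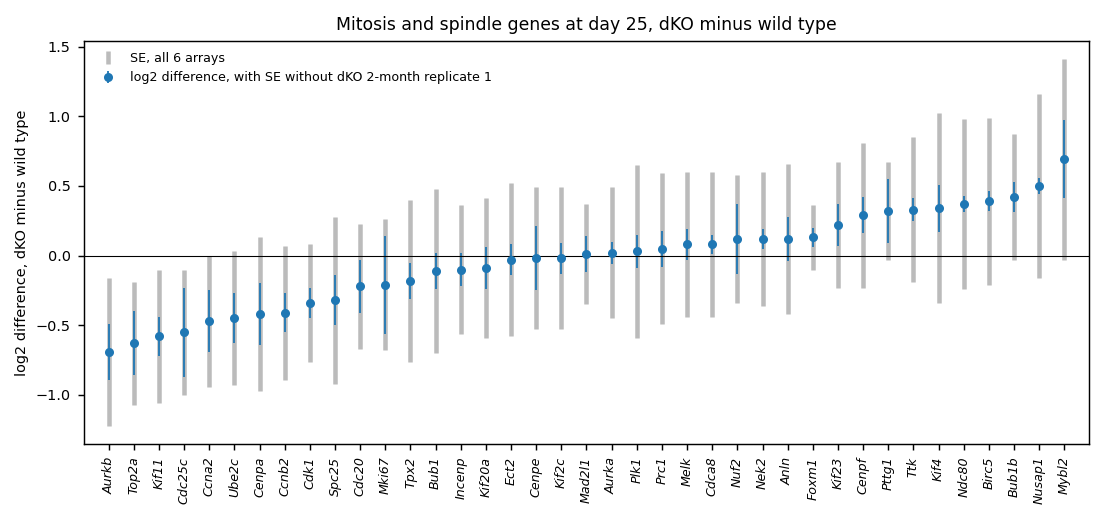
The log2 difference, dKO minus wild type at day 25, for each of the 39 genes (points; vertical axis), ordered by size along the horizontal axis. Grey bars are the SE of the fit on all 6 arrays and blue bars the SE without dKO 2-month replicate 1. Differences run from -0.69 to 0.69 with 20 above 0 and 19 below it, and the bars have a median of 0.51 (grey) and 0.13 (blue).

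Between day 25 and 2 months, within the dKO, the mean of all 39 genes was lower at 2 months (46.1% of all genes were lower), with a median difference of -0.87 and a range of -1.59 for Mybl2 to -0.32 for Foxm1. That mean joins an array on which every gene was low and one near the day 25 level. Without replicate 1 the median was -0.07, with 25 genes lower and 14 higher; without replicate 2 it was -1.61, with all 39 lower (45.6% and 47.3% of all genes were lower in these fits). Of the 39 genes, 8 were more than 2-fold lower (3.03% of all genes), and in 15 both arrays at 2 months lay below both dKO arrays at day 25 (17.0% of all genes), among them Bub1b, Birc5, Nusap1, Kif4, Kif23, Kif2c and Mybl2.

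None of the 39 passed an unadjusted p of 0.05 in limma on all 6 arrays, where 3.73% of all genes were higher and 2.9% lower. The smallest unadjusted limma p was 0.05725, for Kif23, with a difference of -1.12 (SE 0.45, adjusted p = 0.712). Bub1b differed by -1.05 (SE 0.45), Pttg1 by -0.77 (SE 0.35), Mybl2 by -1.59 (SE 0.72) and Cenpf by -1.14 (SE 0.52). Kif2c differed by -1.07 (SE 0.51), Birc5 by -1.23 (SE 0.60) and Nek2 by -0.98 (SE 0.48). In their role groups Ccnb2, at -0.66 (SE 0.48), Ect2, at -0.93 (SE 0.55), and Mki67, at -0.57 (SE 0.47), had the smallest p. Some of these values depended on the probe set. Pttg1 was at -0.06 with its brightest plain-suffix probe set and at -1.31 with a brighter one that this rule passes over. Averaging a gene's probe sets gave -0.54 for Cenpf, -0.43 for Kif2c and -0.36 for Nek2. With replicate 1 alone standing for 2 months, and assumed to vary like the other groups, 38 of the 39 were lower at an unadjusted p of 0.05 (14.6% of all genes) with limma adjusted p of 0.122 to 0.251. With replicate 2 alone 1 gene was, Birc5, which was also among the 1.85% of all genes lower at that p.

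Between dKO at 2 months and wild type at day 25, the mean was again lower for all 39 genes (44.2% of all genes), with a median of -0.90 and a range of -1.32 for Aurkb to -0.19 for Foxm1. This comparison shares its arrays with both others and is not independent of them. In 23 genes both arrays at 2 months lay below both wild-type arrays (17.3% of all genes), and 10 were more than 2-fold lower (1.56%). None passed an unadjusted p of 0.05 in limma, where 9.53% of all genes were higher and 5.36% lower. Cdc25c had the smallest adjusted p, 0.3823 in limma, with a difference of -1.17 (SE 0.45). Kif11 differed by -1.21 (SE 0.48), Aurkb by -1.32 (SE 0.53), Top2a by -1.09 (SE 0.44) and Cenpa by -1.29 (SE 0.55), and Ccnb2 and Ube2c by -1.07 each (SE 0.48 each). Kif2c differed by -1.09 (SE 0.51), and the smallest p of the remaining role groups were those of Bub1 at -1.02 (SE 0.59), Incenp at -0.90 (SE 0.46), Ect2 at -0.96 (SE 0.55) and Mybl2 at -0.90 (SE 0.72). Averaging a gene's probe sets gave -0.48 for Kif2c, -0.53 for Incenp and -0.67 for Top2a. Cenpa was at -3.14 with its plain-suffix probe set (adjusted p = 0.203 in limma). That probe set is dim, at 314 and 178 in wild type and 26 on each array at 2 months. Without replicate 1 the median was -0.11, and Ndc80 and Nusap1 were higher at an unadjusted p of 0.05 (7.75% of all genes were) and none lower (4.41%). Without replicate 2 the median was -1.65 and all 39 were lower at that p (14.4% of all genes), with limma adjusted p of 0.0773 to 0.186.

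Other genes of division were low along with the mitosis and spindle genes on replicate 1 at 2 months, with medians nearer to 0. Of 85 further mitosis genes, 80 lay below all 4 day 25 arrays (28.9% of all genes) and 58 were more than 2-fold lower (5.44%). Their median was -1.26, and on replicate 2 it was -0.08. Tacc3, a spindle protein, gave 1045 and 734 in wild type, 1251 and 1275 in dKO mice at day 25, and 200 and 859 in dKO at 2 months. Zwint, a kinetochore gene, went the other way, at 1809 and 1803 at 2 months against 1336 to 1692 at day 25. Of 31 DNA replication genes, 30 lay below all 4 arrays and 20 were over 2-fold lower, with a median of -1.09 there and 0.02 on replicate 2. Uhrf1, which maintains DNA methylation at the fork, gave 611 and 2884 at 2 months against 2182 to 4019 at day 25, and Mcm3, part of the replicative helicase, gave 456 and 1196 against 921 to 1614. Of 14 G1 cyclins and CDK inhibitors, 6 lay below all 4 day 25 arrays on replicate 1 (28.9% of all genes) and 4 above (5939 of 18193 genes). Their median was -0.19 there and 0.01 on replicate 2. At day 25 the median dKO minus wild type difference was -0.09 for the further mitosis genes (31 higher, 54 lower). It was -0.18 for the replication genes (6 higher, 25 lower) and 0.02 for the G1 genes. Over all genes 55.4% were higher and 43.9% lower. Without overlap, 16 of the 31 replication genes were lower in dKO (19.5% of all genes) and 4 higher (26.4%). None of the further mitosis or replication genes passed an unadjusted p of 0.05 at day 25, where 4.88% of all genes were higher and 3.43% lower. In the G1 list Ccnd2, the D-type cyclin of granulosa cells, did, lower in dKO by -0.77 (SE 0.19, adjusted p = 0.5088 in limma), as did Cdkn1b, the inhibitor p27, by -0.48 (SE 0.18, adjusted p = 0.6032).

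Markers of other cells also stood apart at 2 months. The summed intensity of 17 oocyte markers was 50391 and 30344 in wild type, 70432 and 103780 in dKO mice at day 25, and 9468 and 56624 in dKO at 2 months. On replicate 1 at 2 months 16 of the 17 lay below all 4 day 25 arrays, with a median of -2.70, against -0.10 on replicate 2; Gdf9, an oocyte growth factor, gave 855 there and 3046 to 9178 at day 25. Of all 18193 genes, 5939 lay above all 4 day 25 arrays on replicate 1, and 28.9% lay below all 4. The 17 leukocyte markers summed to 2045 and 4283 in wild type and 8800 and 5244 in dKO mice at day 25. In dKO at 2 months their sums were 19706 and 6577. All 17 lay above the 4 day 25 arrays on replicate 1, with a median of 1.96, against 0.42 on replicate 2. All 12 endothelial markers did so too, with a median of 1.48, against 0.52 on replicate 2, and sums of 1311 and 1483, 1560 and 2407, and 4695 and 2441. Ptprc (CD45), carried by all leukocytes, gave 468 on replicate 1 against 46 to 147 at day 25, and Cdh5 (VE-cadherin), an endothelial junction gene, gave 318 against 81 to 167. Medians on replicates 1 and 2 were 0.58 and 0.11 for 12 stromal and smooth muscle markers and 1.13 and 0.20 for 8 surface epithelium markers. The 6 theca markers had medians of 1.43 and 1.11, with 4 and 3 of them above all 4 day 25 arrays (21.7% of all genes on replicate 2). Cyp17a1, the androgen-making enzyme of theca cells, gave 12804 and 15028 at 2 months, against 389 to 5073 at day 25. Ptch1 (2613 and 2114, against 1928 to 3787) and Gli1 (80 and 88, against 58 to 137) lay within the day 25 range. Hsd3b1 lay within it on replicate 2. The 12 granulosa markers had medians of 0.07 and 0.02, and on replicate 1 they ran from -1.02 to 0.97, with 3 below all 4 day 25 arrays and 3 above. Foxl2, a defining granulosa factor, gave 13167 and 8826 at 2 months, against 6165 to 7761 at day 25, while Fst (follistatin) gave 4491 and 5571, against 7416 to 10515. The part of these other cells in the levels of the mitosis and spindle genes was not tested.

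**Figure D4:**
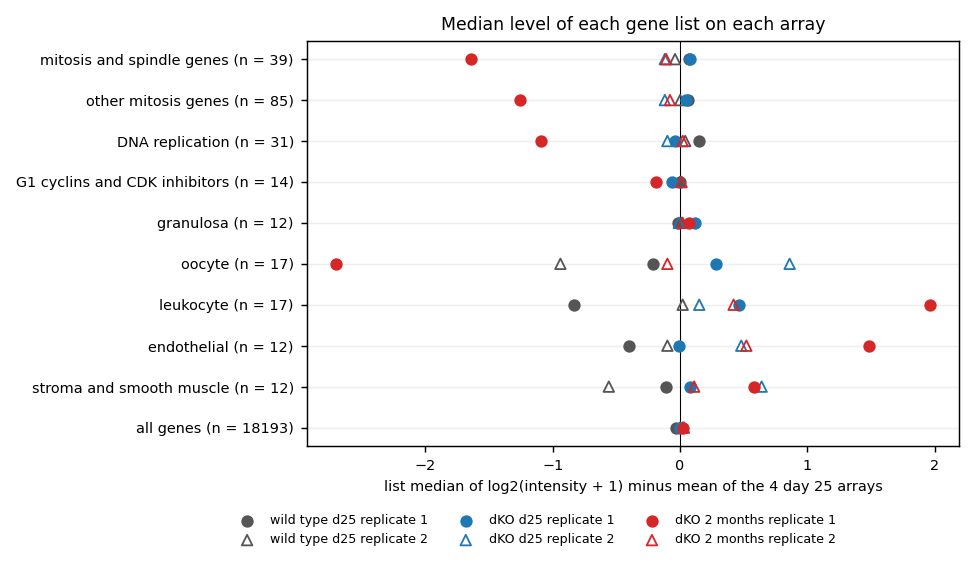
The median over each gene list (rows, with the number of genes) of log2(intensity + 1) minus the mean of the 4 day 25 arrays (horizontal axis), for each array, with circles for replicate 1 and triangles for replicate 2. On dKO 2 months replicate 1 the mitosis and spindle genes lie at -1.64, the oocyte markers at -2.70, the leukocyte markers at 1.96 and the granulosa markers at 0.07.

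Most other probe sets of these genes were low on replicate 1 too. The 39 genes had 85 probe sets, and 46 were not the brightest of their gene. Of these, 23 lay above the median of all probe sets, from 18 genes, and in 21 of the 23 replicate 1 at 2 months was below all 4 day 25 arrays. The exceptions were 1 further probe set each of Kif2c and Pttg1. Among the 23 dimmer ones, 12 were below all 4. The sign of the day 25 difference was the same as in the chosen probe set for 20 of the 23 bright ones, and opposite for 2 of Cdca8 and for 1 of Cenpf.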

How the data were processed

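Total RNA of granulosa cells was labelled with biotin and hybridised to 6 one-colour arrays, per the labels. Per the submitters' processing notes the authors used affy and RMA, which corrects background, normalises between arrays and sums probes; the deposited intensity values are on a linear scale, in whole numbers, with array medians of 73 to 74. Versions are not given in the sources used here. From the 45101 probe sets, 64 controls were left out. log2(intensity + 1) was fitted with limma 3.58.1 (R 4.3.3, lmFit and eBayes) as 1 mean per group, leaving 3 residual degrees of freedom, and p-values were adjusted by Benjamini-Hochberg over 45037 probe sets. An exact permutation test of 2 arrays against 2 cannot go below p = 0.333. Of the probe sets, 34945 had 1 gene symbol, 932 several and 9160 none; 18193 genes were read by 1 probe set each. The number of arrays limits the precision. Fit values are given for the 8 genes with the smallest p in each comparison and for the smallest of each role group. The genes and lists were chosen with earlier results of these data known. The fits were tested on simulated data. Deviations of same-numbered arrays were weakly correlated, and no pairing was used in the main fit. Alternatives covered scaling, dim probe sets, spread model, choice of probe set, pseudocount, threshold, replicate block and leaving out arrays.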

Additional observations from a re-analysis of the deposited data

How the results depend on the processing

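On replicate 1 of dKO at 2 months all 39 genes lay below all day 25 arrays under each scaling, filter and pseudocount run. They also did without any 1 day 25 array, and 36 did with the brightest plain-suffix probe set. The median was -1.66 to -1.61 when a day 25 array was left out, and -1.3 when the probe sets of each gene were averaged, dim ones included. On replicate 2 the genes below all day 25 arrays numbered 6 to 21 when 1 of those was left out (12 without wild-type replicate 2 and 21 without dKO replicate 2), and those above all numbered 1 with the mean of all probe sets. None of the 39 passed an adjusted p of 0.05 in limma under any alternative run. For dKO minus wild type at day 25, genes at an unadjusted p of 0.05 numbered 5 higher and 3 lower with only the 4 arrays compared. With the mean of all probe sets, or with the brightest plain-suffix one, 1 was lower. Anln, at 0.12, ranged from -0.06 to 0.30 when an array was left out and reversed without dKO replicate 1. For dKO at 2 months minus day 25, genes lower at that p numbered 1 with median centring, 1 without dim probe sets, 2 with a trended robust prior and 1 with the mean of all probe sets, and 0 to 38 when an array was left out; the median ranged from -1.61 to -0.07, and Ccnb2 from -1.37 to 0.05. For dKO at 2 months minus wild type, genes lower at that p numbered 4, 4, 5 and 6 in the same order. They numbered 1 with repeated quantile normalisation and 1 with the brightest plain-suffix probe set. When an array was left out, the median ranged from -1.65 to -0.11 and Mybl2 from -1.95 to 0.16. Apart from the changes made by fewer arrays, the cause was not tested. Same-numbered arrays had correlations of deviations of -0.159, -0.208 and 0.057. With 2 arrays a group, these cannot decide whether same-numbered arrays were prepared together. With the replicate number as a block the medians stayed at 0.01, -0.87 and -0.90 and 0 genes passed in each comparison. A crossed block, added after the data were seen, gave 3 genes lower at an unadjusted p of 0.05 for dKO at 2 months minus day 25 and 0 in the other comparisons. With 2 arrays a group, differences within the SEs given cannot be told from the spread between arrays.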
